A study of Mus musculus with 14 samples.

Results

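The miR-15/16 seed family is a group of microRNAs (miRNAs) that carry 1 seed, the stretch of bases 2 to 8 with which a miRNA recognises its target messages. It was followed here as 6 lines of a table of counts per mature miRNA, chosen by name: mmu-miR-15a-5p, mmu-miR-15b-5p, mmu-miR-15b-3p, mmu-miR-16-5p, mmu-miR-195a-5p and mmu-miR-322-5p, out of 1250 lines in all. Small RNA was sequenced from macrophages with mouse bone marrow as their source and from the exosomes, small vesicles, that they released. The groups were 4 exosome libraries from macrophages given IL4, 4 exosome libraries from control macrophages, 3 cell lysates with IL4 and 3 control lysates. IL4 (interleukin 4) is a T-helper cytokine under which macrophages take up an alternative, wound-healing programme. The titles mark the controls as wild type, the labels name no mutant allele in any group, and neither age, sex, the dose of IL4 nor the number of animals pooled is given in the labels. Each title also holds a date, shared by 1 IL4 and 1 control library of the same compartment: 25 January, 16 March, 5 April and 29 December for exosome replicates 1 to 4 (the last in the year before the others), and 23 January, 14 March and 21 March for lysate replicates 1 to 3. No date is shared between exosomes and lysates, so date and compartment cannot be told apart.

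A miRNA is cut from a hairpin as 2 arms, 5p and 3p, of which usually 1 is loaded onto an Argonaute protein and pairs through its seed with messages that it represses. miR-15 and miR-16 repress the survival factor Bcl2 and several cyclins, and their loss from the DLEU2 locus is known from human chronic lymphocytic leukaemia. miR-16 is abundant in most blood cells, and miR-322 is the mouse counterpart of human miR-424, which rises as human monocytes mature.

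The mature sequences are shown because they decide which lines can act as 1 family, and the capitals mark the seed (RefSeq, GRCm38.p6, 5′ to 3′).
miR-16-5p: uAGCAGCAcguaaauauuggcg
miR-15b-5p: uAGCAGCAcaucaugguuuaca
miR-15a-5p: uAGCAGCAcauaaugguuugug
miR-195a-5p: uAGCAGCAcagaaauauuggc
miR-322-5p: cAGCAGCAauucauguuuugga
miR-15b-3p: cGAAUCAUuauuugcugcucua
The 5 lines named 5p shared the seed AGCAGCA. The sixth line, miR-15b-3p, is the opposite arm of the miR-15b hairpin and has another seed, so the family's name holds for 5 of the 6 lines. Outside the seed, miR-16-5p and miR-195a-5p had the same base at 19 of the 21 positions that both have and differed by G10A and U11G, with positions counted from the 5′ end and the base of miR-16-5p given first. miR-15a-5p and miR-15b-5p had the same base at 18 of 22 positions and differed by A12C, G20A, U21C and G22A. miR-322-5p was the least like miR-16-5p of the other members with the seed, with 12 of 22 positions the same. The sources used here do not say whether the authors' counting allowed mismatches, so the low miR-195a-5p counts are uncertain beside the far higher ones of miR-16-5p.

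Most members lie beside another member or relative in the genome (GRCm38, GENCODE annotation). Mir15b (chr3:69009772-69009835) and Mir16-2 (chr3:69009902-69009996) lie 66 bases apart on the plus strand in an intron of Smc4, which encodes a condensin subunit. Mir15a (chr14:61632027-61632110) and Mir16-1 (chr14:61631880-61631972) lie 54 bases apart on the minus strand within the non-coding gene Dleu2, where Mir16-1 overlaps an annotated exon and Mir15a does not. Both Mir16 genes give the same miR-16-5p, whose line therefore sums 2 loci. Mir195a (chr11:70235042-70235135, plus strand) and Mir322 (chrX:53054255-53054349, minus strand) overlap no annotated host gene, and Mir322 lies 200 bases from Mir503 in an X-chromosome cluster. Upstream of Mir195a on the same strand lies Mir497 (chr11:70234717-70234800), which gives miR-497a-5p, a line with the family's seed. The miR-15b hairpin (plus strand, at the coordinates above) is printed because both of its arms are members, and its capitals mark the 5p and then the 3p arm.
Mir15b hairpin: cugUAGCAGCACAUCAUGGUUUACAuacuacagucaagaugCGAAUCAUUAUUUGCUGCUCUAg

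Total counts ran from 28417 to 411671 in exosome libraries and from 3941480 to 6792079 in lysates, so 1 read was worth 2.43 to 35.2 CPM (counts per 1000000 of the library's total) in exosomes and at most 0.254 CPM in lysates. The defining myeloid lines miR-223-3p, miR-142a-3p, miR-142a-5p and miR-511-3p were all detected in each of the 4 groups. Their sum was 1.61 to 2.04% of reads in IL4 exosomes and 2.70 to 3.70% in control exosomes, against 1.23 to 1.85% in IL4 lysates and 2.67 to 3.17% in control lysates. miR-511-3p was sparse in exosomes, with 0, 7, 30 and 0 counts with IL4 and 1, 2, 9 and 0 counts in controls. The exosome libraries of 25 January stood apart: the epithelial marker miR-203-3p had 100436 CPM in the IL4 and 47542 CPM in the control library of that date, against at most 17803 CPM in the other exosome libraries. Values without both libraries are given for some member tests, namely IL4 in exosomes and exosomes against lysates. The arm ratio of miR-15b was not computed without both. No replicate pair agreed within sampling noise, and the labels do not say whether replicates were separate cultures or animals, so p-values measure only the spread between these libraries.

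miR-16-5p was the most abundant member in every group. Its level was 5477, 6846, 6430 and 7702 CPM in IL4 exosome replicates 1 to 4 and 6475, 10353, 12697 and 8393 CPM in control exosome replicates 1 to 4. In lysates it was 8049, 8663 and 7002 CPM with IL4 and 8087, 10993 and 9497 CPM in controls. By mean CPM it was line 27 of the 1250 in IL4 exosomes and line 23 in control exosomes, against 20 in IL4 lysates and 18 in control lysates. The 4 groups overlapped, and the control exosomes spread most.

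miR-15b-5p, cut from the hairpin that lies beside Mir16-2, came next. It had 3678, 3952, 3942 and 5578 CPM in IL4 exosomes and 4188, 5278, 4648 and 5304 CPM in control exosomes. Lysates held 6513, 5081 and 3985 CPM with IL4 and 7411, 5686 and 5402 CPM in controls. All 3 control lysates lay above all 4 control exosome libraries, while the IL4 groups overlapped.

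miR-15a-5p, from the Dleu2 locus, was about an order of magnitude lower. It had 79.9, 603, 498 and 834 CPM in IL4 exosomes and 633, 754, 583 and 875 CPM in control exosomes. The lowest of these, in the IL4 library of 25 January, rested on 4 counts. In lysates it had 672, 529 and 533 CPM with IL4 and 676, 780 and 641 CPM in controls, within the range of the exosomes.

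miR-322-5p, the X-chromosome member, was lower again. IL4 exosomes had 219.9, 362, 386 and 235 CPM and control exosomes 317, 459.7, 291 and 383 CPM. Lysates had 521, 404 and 342 CPM with IL4 and 607, 498 and 488 CPM in controls. Every control lysate was above every control exosome library.

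miR-195a-5p was near the limit of counting in exosomes. It had 1, 3, 25 and 0 counts in IL4 exosomes and 3, 8, 11 and 0 counts in control exosomes, against 71, 63 and 67 counts in IL4 lysates and 75, 122 and 65 counts in control lysates. The mean level was 30.2 ± 26.1 CPM in IL4 exosomes and 77.0 ± 63.6 CPM in control exosomes (SD, n = 4), against 13.7 ± 2.01 CPM in IL4 lysates and 14.3 ± 3.26 CPM in control lysates (SD, n = 3). A count of 0 allows up to 39.1 CPM in the IL4 library of 29 December and 82.0 CPM in the control library of that date (a limit of 3 counts, for counting error only).

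miR-15b-3p, the arm without the family seed, had 619.6, 509, 398 and 274 CPM in IL4 exosomes and 774, 607, 749 and 301 CPM in control exosomes. Lysates had 393, 282 and 182 CPM with IL4 and 591, 320.1 and 279.6 CPM in controls. The exosome library of 29 December was the lowest of its group with IL4 and in controls, and within the lysates' range.

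**Figure D1:**
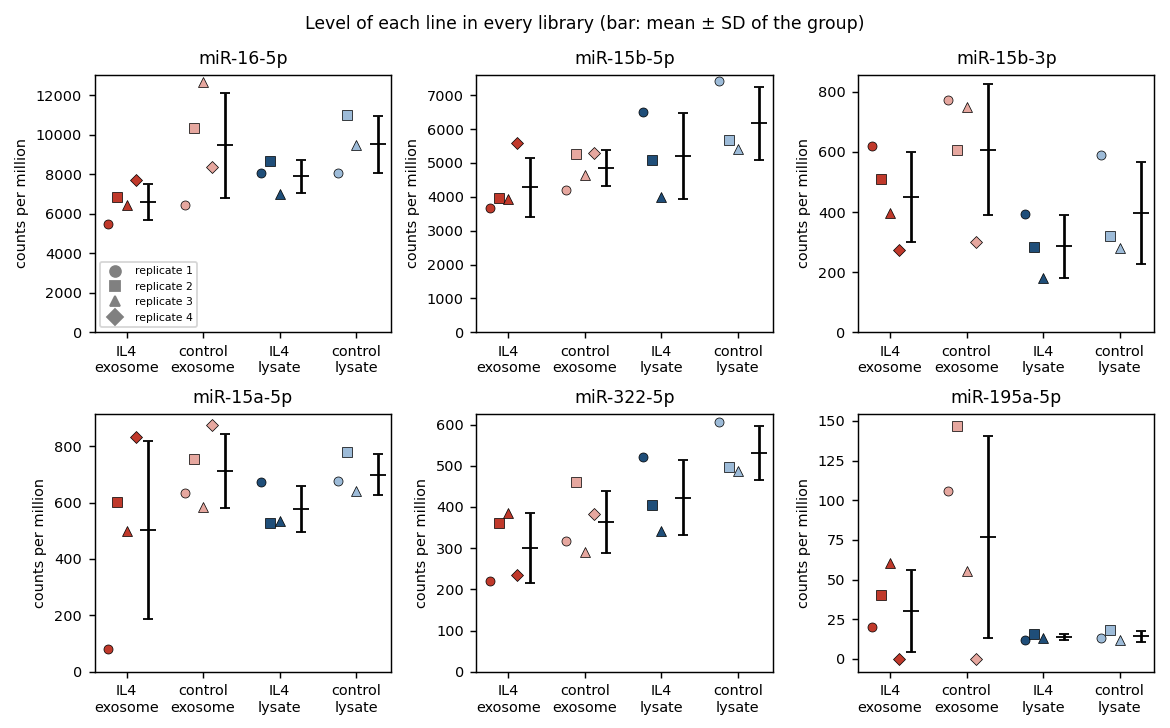
Level of each of the 6 members in CPM (vertical axis, from 0, for miR-195a-5p from just below 0) in IL4 exosomes, control exosomes, IL4 lysates and control lysates; each point is a library, its shape the replicate number, and the bar is the group's mean ± SD (n = 4 exosome and 3 lysate libraries per group). miR-15b-5p and miR-322-5p are higher in all 3 control lysates than in all 4 control exosome libraries, and miR-15a-5p in IL4 exosome replicate 1 (79.9 CPM) lies far below the rest of its group.

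Between members the order of mean CPM was miR-16-5p, then miR-15b-5p, in all 4 groups. In IL4 exosomes the means were 6614 ± 925 and 4288 ± 870 CPM (SD, n = 4), and in control exosomes 9480 ± 2666 and 4854 ± 538 CPM (SD, n = 4). IL4 lysates had 7904 ± 840 and 5193 ± 1268 CPM, and control lysates 9526 ± 1453 and 6166 ± 1087 CPM (SD, n = 3). miR-16-5p exceeded miR-15b-5p in all 14 libraries, by 1.09 to 2.73-fold in counts. The next lines were not separated in exosomes: miR-15a-5p averaged 504 ± 315 CPM and miR-15b-3p 450 ± 148 CPM with IL4, and 711 ± 131 and 608 ± 217 CPM in controls (SD, n = 4). miR-322-5p averaged 301 ± 85.5 CPM in IL4 exosomes and 363 ± 75.3 CPM in control exosomes (SD, n = 4), against 422 ± 91.0 CPM in IL4 lysates and 531 ± 65.9 CPM in control lysates (SD, n = 3). Ligation of adapters favours some ends over others, so levels of different miRNAs give the order of their reads, not of their molecules.

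The 5 lines with the seed were read together as the pool of miRNA that carries it. Their sum was 1.17 ± 0.201% of reads in IL4 exosomes and 1.55 ± 0.286% in control exosomes (SD, n = 4), against 1.41 ± 0.201% in IL4 lysates and 1.69 ± 0.0976% in control lysates (SD, n = 3). Within that sum miR-16-5p took 56.6% in IL4 exosomes, 60.4% in control exosomes, 56.3% in IL4 lysates and 56.2% in control lysates, as means over libraries. Single libraries ran from 53.7 to 58.0% in IL4 exosomes and from 55.3 to 69.5% in control exosomes, and from 51.0 to 59.0% in IL4 lysates and from 48.2 to 61.2% in control lysates. miR-15b-5p took 36.5% in IL4 exosomes and 31.9% in control exosomes, against 36.5% in lysates with IL4 and 36.5% in control lysates. miR-15a-5p took 4.04% in IL4 exosomes and 4.72% in control exosomes, against 4.12% in lysates with IL4 and 4.12% in control lysates, and miR-322-5p took 2.39 to 3.14% over the 4 group means. The lysates of 23 January, with IL4 and in controls, had the lowest miR-16-5p shares of their groups, and the other lysates had 59.0% or more.

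**Figure D2:**
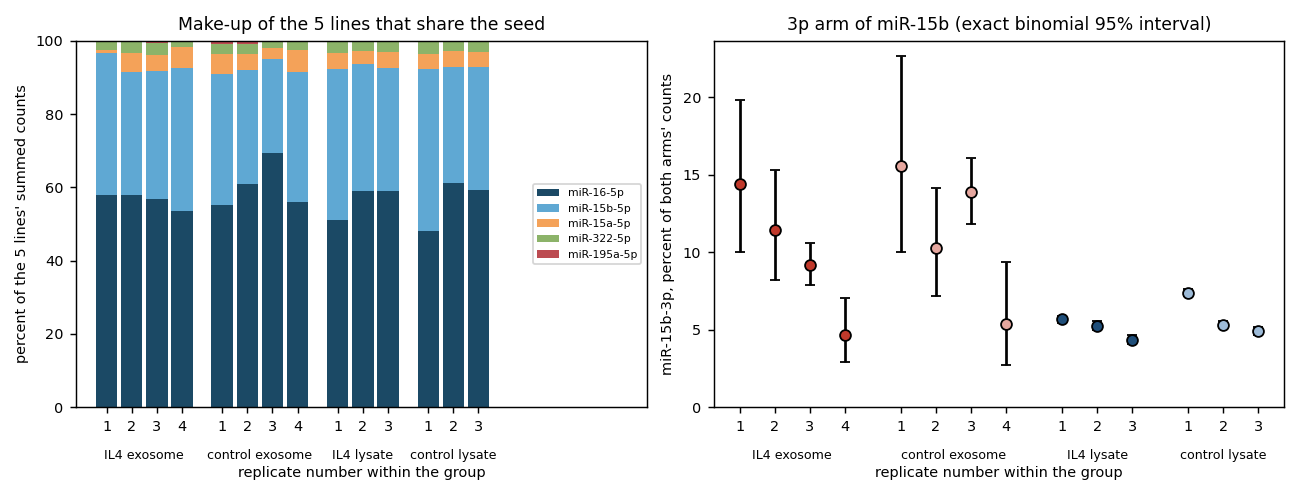
Left, share of each of the 5 lines with the common seed in their summed counts (percent, stacked bars from 0) in every library, by group and replicate. Right, miR-15b-3p as a percent of the counts of both miR-15b arms, with exact binomial 95% intervals, which cover counting error only. In both exosome groups the library of 29 December (replicate 4, 4.68% with IL4 and 5.37% in controls) lies at the level of the lysates, and the other 3 lie above all lysates.

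IL4 was compared with control in exosomes and in lysates, each in its own fit, to ask whether the cytokine moved the family. No member passed the test in either compartment (edgeR's quasi-likelihood test, two-sided, Benjamini-Hochberg adjustment over all lines tested, threshold 0.05), and no member had an unadjusted p under 0.05. In exosomes 5 of the 6 members passed the filter on low counts, miR-195a-5p being the exception, and 0 of 5 were called, against 0.549% of the 182 lines tested (1 line). Unadjusted p under 0.05 was met by 6.59% of all lines. In lysates all 6 were tested and 0 of 6 called, against 7.22% of 443 lines (32 lines), with an unadjusted p under 0.05 in 14.2%. With the date as a block, 50 lysate lines were called and still no member. DESeq2 called no member either, against 6 lines called in exosomes and 42 in lysates. No member's groups were free of overlap in CPM, against 6.04% of the lines tested in exosomes and 24.2% in lysates. In bulk libraries such as these, fewer cells of a type and less RNA per cell cannot be told apart.

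In exosomes the log2 fold change of miR-16-5p with IL4 was -0.35 (SE 0.22, 95% confidence interval -0.84 to 0.14, edgeR adjusted p = 0.804). For miR-15b-5p it was -0.02 (SE 0.21, interval -0.50 to 0.46), the narrowest interval of the 5, and its adjusted p was 0.989. The intervals of miR-15b-3p (-1.13 to 0.59), miR-15a-5p (-1.50 to 0.79) and miR-322-5p (-0.80 to 0.61) were wider. These exosome libraries do not tell apart values within these intervals, and the intervals do not give the smallest difference that could have been called. The members' median was -0.27, beside -0.09 over all lines tested. Without both libraries of 25 January, miR-16-5p was at -0.36, miR-15a-5p at 0.02 and miR-322-5p at 0.02, with adjusted p of 0.922 or more for all 5.

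In lysates the standard errors of the same 5 members were smaller than in exosomes. miR-16-5p had a log2 fold change with IL4 of -0.09 (SE 0.20, interval -0.55 to 0.37), miR-15b-5p of -0.06 (SE 0.15, interval -0.42 to 0.30) and miR-15a-5p of -0.09 (SE 0.19, interval -0.54 to 0.35). miR-322-5p was at -0.14 (SE 0.17, interval -0.54 to 0.25) and miR-15b-3p at -0.28 (SE 0.29, interval -0.95 to 0.39). miR-195a-5p was at 0.13 (SE 0.30, interval -0.56 to 0.81). The adjusted p of the 6 ran from 0.82 to 0.957 (edgeR), and their median was -0.09, beside 0.0009 over all lines tested.

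Within dates, the CPM of 3 of the 5 members tested in exosomes (miR-16-5p, miR-15a-5p and miR-15b-3p) was lower with IL4 at 4 of 4 dates, as were 28.6% of all lines tested there. miR-15b-5p and miR-322-5p were lower at 3 of 4. In lysates, 5 of the 6 members were lower with IL4 at 3 of 3 dates, as were 36.6% of all lines, and miR-195a-5p was lower at 2 of 3. CPM and the fitted values are on different scales: with library totals alone as the scale, the median of all lines moved by -0.16 in exosomes and -0.19 in lysates. On the scale of TMM (trimmed mean of M-values) factors, miR-16-5p lay at -0.26 relative to the median of all lines in exosomes and at -0.09 in lysates. The mean of miR-223-3p, a myeloid line, was 11143 CPM in IL4 exosomes and 20895 CPM in control exosomes, against 8334 CPM in IL4 lysates and 22230 CPM in control lysates. In exosomes its fold change was -0.75 (log2, edgeR adjusted p = 0.216), and 0 of the 3 myeloid lines tested there were called. In lysates it fell by 1.24 on the log2 scale with IL4 (adjusted p = 0.00754), while miR-511-3p rose by 1.42 (adjusted p = 0.0117) and the other 2 myeloid lines were not called. Their part in the members' values was not tested.

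The IL4 effects of the compartments did not differ detectably for any member. The interaction was called for 0 of 6 members (edgeR, adjusted p = 1 for each), as for 0% of 338 lines, with an unadjusted p under 0.05 for 0 of 6 members and 4.14% of all lines. DESeq2 also called 0 lines, with 22 under an unadjusted p of 0.05. Differences of the log2 effects ranged from -0.97 for miR-195a-5p (interval -3.34 to 1.40) to 0.20 for miR-15b-5p (interval -0.42 to 0.82).

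Exosomes were compared with lysates within IL4 and within control libraries, in 1 fit of all 14. miR-16-5p, miR-15b-5p and miR-322-5p were lower in exosomes in both comparisons on the TMM scale, which takes most lines as unchanged. With library totals alone as the scale these calls were lost. With DESeq2's size factors in edgeR, miR-15b-5p (adjusted p = 0.0177 with IL4, 0.00972 in controls) and miR-322-5p (0.0125 and 0.00853) stayed called, as did miR-16-5p with IL4 (0.0173). With IL4, 3 of 6 members were called, all lower, against 49.1% of the 338 lines called in either direction and 18.9% called lower. In controls 3 of 6 were called lower, against 50.9% in either direction and 21.6% lower. The 338 lines include some, such as miR-451a, that passed the filter through exosomes alone and could hardly be called lower there. These lines also enter the median of all lines. The fold change of miR-15b-5p was -0.91 in IL4 libraries (log2, SE 0.20, interval -1.35 to -0.48, edgeR adjusted p = 0.00205) and -1.11 in control libraries (SE 0.20, interval -1.55 to -0.68, adjusted p = 0.00044). That of miR-322-5p was -1.15 with IL4 (SE 0.25, interval -1.69 to -0.62, adjusted p = 0.00172) and -1.34 in controls (SE 0.26, interval -1.89 to -0.80, adjusted p = 0.000562). In CPM, 0 of 6 members were free of overlap between IL4 exosomes and IL4 lysates, against 7.69% of all lines lying lower without overlap. In controls 2 of 6 did not overlap, both lower in exosomes, against 10.4%.

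miR-16-5p was at -0.94 in IL4 exosomes against lysates (log2, SE 0.25, interval -1.47 to -0.41, adjusted p = 0.00605) and at -0.84 in controls (SE 0.25, interval -1.37 to -0.31, adjusted p = 0.0101). With IL4 its call was lost without IL4 lysate replicate 2 (-0.66, adjusted p = 0.0775). In controls it was lost without control exosome replicate 1 (-0.43, adjusted p = 0.114), without control lysate replicate 2 (-0.64, adjusted p = 0.0659), with only the 2 groups in the fit (-0.60, adjusted p = 0.0839), with DESeq2's size factors in edgeR (-0.44, adjusted p = 0.0967) and in DESeq2 (-0.43, adjusted p = 0.064). Its mean was 6614 CPM in IL4 exosomes and 7904 CPM in IL4 lysates, and 9480 CPM in control exosomes and 9526 CPM in control lysates.

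With library totals alone as the scale, the median of all 338 lines moved up by 0.70 (log2) with IL4 and 0.80 in controls, and none of the 3 members was called in either comparison. miR-16-5p was then at -0.26 with IL4 (adjusted p = 0.423) and -0.0048 in controls (adjusted p = 0.991). miR-15b-5p was at -0.28 with IL4 (adjusted p = 0.39) and -0.34 in controls (adjusted p = 0.278). miR-322-5p was at -0.47 with IL4 (adjusted p = 0.262) and -0.56 in controls (adjusted p = 0.188). The split of all called lines also turned with the scale. With IL4, 30.2% of the lines tested were called higher in exosomes and 64 lines lower on the TMM scale, against 127 higher and 12 lower on library totals. In controls 99 were called higher (29.3%) and 73 lower, against 126 higher and 16 lower.

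Relative to the median of all lines on the TMM scale, miR-322-5p lay at -1.14, miR-15b-5p at -0.90 and miR-16-5p at -0.93 with IL4. In controls these were -1.17, -0.94 and -0.67. Such a distance is almost the same on any scale by construction, since a scaling factor shifts every line of a library alike, and it carries no test. The 6 members had a median of -0.90 with IL4, beside -0.01 over all lines, and of -0.81 in controls, beside -0.18.

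The other 3 members were not called on the TMM scale. miR-15a-5p was at -0.89 with IL4 (SE 0.44, adjusted p = 0.107) and -0.78 in controls (SE 0.45, adjusted p = 0.152). In controls it was called without both exosome libraries of 25 January (-0.80, adjusted p = 0.0473) and with no filter on low counts (-1.31, adjusted p = 0.0239). miR-15b-3p lay at 0.04 with IL4 (interval -0.74 to 0.82) and -0.12 in controls (interval -0.90 to 0.67), close to the median of all lines. Without the libraries of 25 January the 3 called members stayed called, at -0.97, -0.96 and -1.12 for miR-15b-5p, miR-16-5p and miR-322-5p with IL4 and at -1.12, -0.74 and -1.37 in controls.

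miR-195a-5p lay the other way, at 0.59 with IL4 (log2, SE 0.78, interval -1.08 to 2.27, adjusted p = 0.557) and 1.56 in controls (SE 0.81, interval -0.16 to 3.29, adjusted p = 0.118). In controls it was called higher in exosomes with library totals as the scale (2.41, adjusted p = 0.0273), in DESeq2 (1.95, adjusted p = 0.00683) and without control exosome replicate 4 (1.89, adjusted p = 0.0418). These values rest on 29 counts over the 4 IL4 exosome libraries and 22 over the 4 control ones. With at most 17.96 CPM in any lysate, miR-195a-5p passed the filter of this fit through exosome libraries alone. Its calls are therefore no support for a difference.

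**Figure D3:**
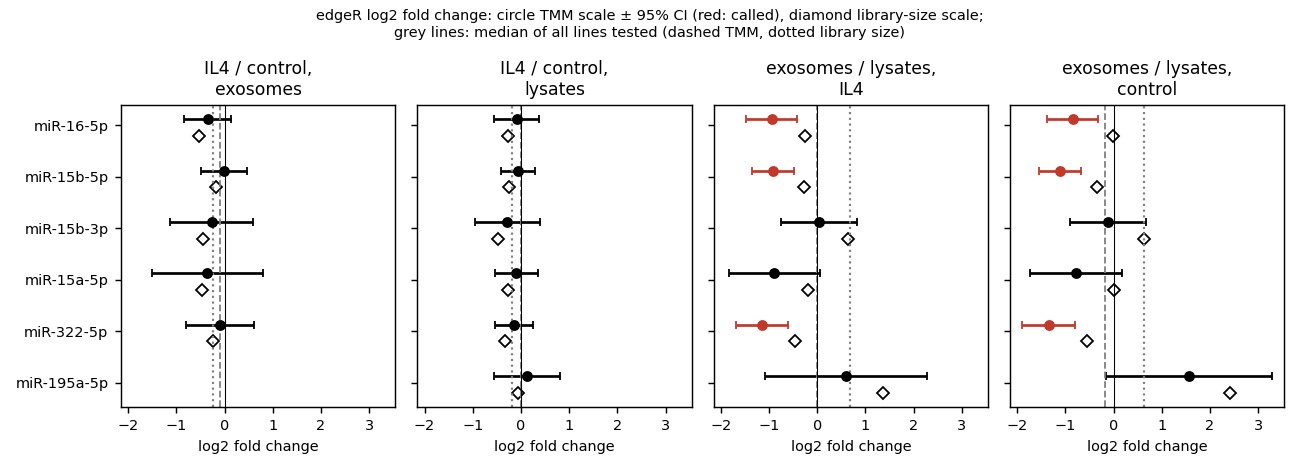
edgeR log2 fold change (horizontal axis) of each member in the 4 comparisons; circles are on the TMM scale with 95% confidence intervals (red where called), open diamonds on the scale of library totals, and the dashed and dotted grey lines mark the median of all lines tested on each scale. The intervals for IL4 against control all span 0, and the called members (-0.84 to -1.34 on the TMM scale) lie further right on library totals, as does the median of all lines, since the scaling factors shift every line alike.

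Marker lines of other cell types were also called between exosomes and lysates. The 4 erythroid lines (miR-451a among them) were all called higher in exosomes in both comparisons and summed to 2.18 to 3.05% of reads in IL4 exosomes and 2.95 to 5.53% in control exosomes, against 0.0120 to 0.0152% in IL4 lysates and 0.0117 to 0.0211% in control lysates. Both endothelial miR-126a lines were also called higher, with mean sums of 1.03% in IL4 exosomes and 1.65% in control exosomes, against 0.00203% in IL4 lysates and 0.00310% in control lysates. The lymphocyte line miR-150-5p was called higher in both comparisons, as were 4 of 4 stromal lines tested with IL4 and 3 of 4 in controls. miR-451a, both miR-144 lines, both miR-126a lines and miR-150-5p had at most 29.4 CPM in any lysate and passed the filter through exosomes alone. So did the stromal lines miR-145a-5p and miR-214-3p. The calls of all these lines therefore add nothing to the levels. The epithelial lines summed to 0.0355 to 10.5% in IL4 exosomes and 0.0814 to 4.89% in control exosomes, against at most 0.0242% in any lysate, and miR-205-5p was at 0 in all lysates. miR-203-3p made up nearly all of the highest sum, and 2 of the 5 epithelial lines tested (miR-203-3p and miR-205-5p) were called higher in each comparison. Both passed the filter through exosomes alone, so these calls add nothing to the levels either. Of the 4 myeloid lines, 2 were called lower in exosomes with IL4 and 3 in controls on the TMM scale, and 1 had a positive fold change in each comparison. As a share of reads their mean sum was not lower in exosomes. It was 1.88% in IL4 exosomes against 1.48% in IL4 lysates, and 3.05% in control exosomes against 3.00% in control lysates. miR-16-5p is itself abundant in erythroid cells. The part of these lines in the members' values was not tested.

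Both arms of miR-15b are members, so their ratio could be read within a library with no scaling. The 5p arm led in all 14 libraries. The 5p to 3p ratio of counts was 5.94, 7.76, 9.90 and 20.4 in IL4 exosomes and 5.41, 8.70, 6.21 and 17.6 in control exosomes, against 16.6, 17.99 and 21.9 in IL4 lysates and 12.5, 17.8 and 19.3 in control lysates. Exosome replicates 1 to 3 lay below all lysates of the same treatment, and replicate 4 lay among them. The 3p share was thus 14.4% in IL4 exosome replicate 1 (exact 95% interval 10.01 to 19.8%, 31 of 215 counts) and 4.68% in replicate 4 (interval 2.92 to 7.06%, 21 of 449 counts). In control exosomes it was 15.6% in replicate 1 (interval 10.04 to 22.7%, 22 of 141 counts) and 5.37% in replicate 4 (interval 2.71 to 9.40%, 11 of 205 counts). These intervals cover counting error only.

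No comparison of the arm ratio passed an exact two-sided permutation test. Exosomes against lysates gave a log2 difference of -0.95 with IL4 (exact p = 0.114, adjusted over the 4 comparisons p = 0.228) and -0.97 in controls (exact p = 0.114, adjusted p = 0.228), where the smallest p that 4 against 3 libraries allow is 0.0286. IL4 against control gave 0.22 in exosomes (exact p = 0.657, adjusted p = 0.657) and 0.20 in lysates (exact p = 0.5, adjusted p = 0.657), where 3 against 3 libraries cannot go below 0.1. The lysate ratio was higher with IL4 at 3 of 3 dates, at 16.6 with IL4 against 12.5 in the control, 17.99 against 17.8, and 21.9 against 19.3. Without exosome replicate 4 the difference was -1.29 with IL4 and -1.31 in controls for exosomes against lysates, and within exosomes the IL4 difference was -0.12 without IL4 replicate 4 and 0.56 without control replicate 4.

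The other arms of the members' hairpins were few. miR-322-3p, the partner of miR-322-5p, was the most abundant. The 5p to 3p count ratio per library was 1.10 to 2.01 in IL4 exosomes and 0.935 to 2.0 in control exosomes, against 1.99 to 2.198 in IL4 lysates and 1.95 to 2.30 in control lysates, so exosomes and lysates overlapped with IL4 and in controls. miR-16-1-3p and miR-16-2-3p differ in sequence and tell the 2 Mir16 loci apart. The arm from the Mir16-2 locus in Smc4 had the higher count in all 6 lysates, with group sums of 1018 against 526 in IL4 lysates and 1635 against 606 in control lysates. In exosomes the counts were small: 5 against 4, 8 against 3, 74 against 11 and 1 against 5 in IL4 replicates 1 to 4, and 5 against 0, 7 against 0, 37 against 1 and 5 against 2 in control replicates 1 to 4. IL4 exosome replicate 4 went the other way, and replicate 3 held most of the counts. No partner arm was called in any comparison, with 1 of 5 lines tested for IL4 in exosomes, 4 of 5 in lysates and 3 of 5 between compartments. miR-322-3p was at -0.55 in IL4 exosomes against lysates (adjusted p = 0.109) and -0.68 in controls (adjusted p = 0.0517). miR-16-1-3p was at -0.08 with IL4 (edgeR adjusted p = 0.937) and -2.39 in controls (adjusted p = 0.0505). The control value rests on the exosome counts of 0, 0, 1 and 2 given above.

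The X-chromosome cluster around Mir322 was followed as 10 further lines, of which 6 passed the filter between compartments. miR-503-5p, whose seed differs from the family's in its last base only, and miR-103-3p, in which the stretch AGCAGC starts at base 1, are printed to show how near they come.
miR-503-5p: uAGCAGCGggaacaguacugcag
miR-103-3p: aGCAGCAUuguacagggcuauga
With IL4, miR-503-5p (-1.64, adjusted p = 0.00823) and miR-351-5p (-0.93, adjusted p = 0.0186) were called lower in exosomes and no line higher. In controls 1 line was called higher (miR-450b-5p, 1.51, adjusted p = 0.0283) and 1 lower (miR-351-5p, -1.38, adjusted p = 0.00192). On library totals the 3 lower calls were lost, with miR-503-5p at -1.03 and miR-351-5p at -0.31 with IL4 and miR-351-5p at -0.66 in controls. There miR-450b-5p stayed called in controls (2.30, adjusted p = 0.00897) and miR-351-3p was called higher with IL4 (3.00, adjusted p = 0.0296). miR-351-3p had 8, 6, 19 and 0 counts in IL4 exosomes and at most 14.6 CPM in lysates. It passed the filter through exosome libraries alone, so its call is no support for a difference. IL4 against control gave no call in the cluster, with 4 of 10 lines tested in exosomes and 9 of 10 in lysates.

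Of the shifted-seed relatives, miR-103-3p was lower in exosomes on the TMM scale, at -1.32 with IL4 (adjusted p = 0.000373) and -1.53 in controls (adjusted p = 1e-04). On library totals it was not called with IL4 (-0.64, adjusted p = 0.056) and stayed called in controls (-0.77, adjusted p = 0.0238). Its close relative miR-107-3p was not called with IL4 (-0.61, adjusted p = 0.0992) or in controls (-0.70, adjusted p = 0.0639). Neither was called for IL4 against control in either compartment. Lines outside the 6 with the family's own seed were miR-497a-5p, with 325 counts over all 14 libraries, and miR-195b, with 2. miR-497a-5p was tested only in lysates, where its log2 fold change with IL4 was 0.62 (adjusted p = 0.584).

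**Figure D4:**
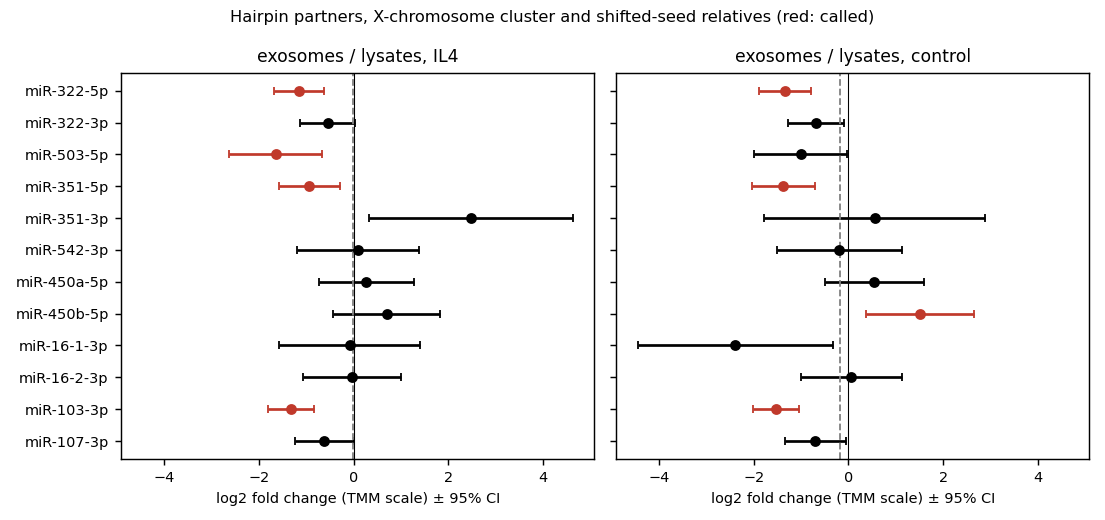
edgeR log2 fold change of exosomes over lysates on the TMM scale, with 95% confidence intervals, for miR-322-5p, its partner arm, lines of its X-chromosome cluster, the 3p arms of the 2 Mir16 loci and the shifted-seed relatives (left with IL4, right in controls; red where called; dashed line, median of all lines tested). miR-322-5p (-1.15 and -1.34) and miR-103-3p (-1.32 and -1.53) lie below 0 on both sides, while miR-450b-5p is called above 0 in controls (1.51).

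By their pattern over all 14 libraries, the most abundant members sat close to other abundant lines of unrelated sequence. Likeness was the root mean square difference of centred log2 values among 338 lines. The 3 lines nearest to miR-16-5p were miR-30e-5p (0.22), miR-24-3p (0.22) and miR-30d-5p (0.23), where the median line was at 1.88. For miR-15b-5p they were let-7g-5p (0.21), miR-26b-5p (0.23) and miR-30d-5p (0.23), with the median at 1.92. For miR-15a-5p they were farther off, with miR-1198-5p at 0.51, miR-328-3p at 0.52 and miR-24-3p at 0.56. These values describe libraries that differ in depth and compartment, and carry no test.

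The sequences were also searched for GGAG and CCCU, short motifs that work on human T cells has tied to the loading of miRNAs into exosomes. None of the 6 members holds either motif in its mature strand. GGAG occurs in 12.9% and CCCU in 11.4% of the 1051 lines of the table that have a sequence in the RefSeq table.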

How the data were processed

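The deposited table holds raw counts per mature miRNA for all 14 libraries. Per the labels' protocols, exosomes came from an OptiPrep gradient and libraries from a NextFlex kit. The submitters' processing notes name cutadapt and the build mm10. The aligner, counter, mismatch setting and use of strand are not stated there. Of the table's lines, 10 join several miRNAs of 1 sequence. Columns were matched to samples by title, with 0 left unused.

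Counts were tested with edgeR 4.0.16 under R 4.3.3, after filterByExpr and with TMM factors (glmQLFit, then a two-sided glmQLFTest), with Benjamini-Hochberg adjustment over all lines tested. A standard error is |log2 fold change| over the square root of F, so it restates the test. IL4 was compared with control within each compartment (own fit), and exosomes with lysates in 1 fit of all libraries. The arm ratio used a pseudocount of 0.5 and an exact permutation test, with Benjamini-Hochberg adjustment over 4 comparisons. DESeq2 1.42.0, other scalings, no filter, left-out libraries and date as a block were alternatives. The tests were checked on simulated data with a fixed spread for all lines. For exosomes against lysates, both compartments were drawn from the same lysate profile, so the check does not bear on the choice of scale.

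The pairing comes from the dates in the titles. Deviations of same-date libraries correlated with r of 0.0822 to 0.716 in exosomes and 0.253 to 0.577 in lysates. Replicate 2 was closer to another date in both (exosomes 0.0822 against 0.212, lysates 0.265 against 0.302). All 6 members are named in every comparison; partners, relatives and the 3 nearest lines followed set rules. Members and lists were chosen with earlier results of these data known. Sequences come from RefSeq (GRCm38.p6) and positions from the GENCODE annotation of GRCm38, the same assembly as mm10.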

Additional observations from a re-analysis of the deposited data

Results flagged for a closer look

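In IL4 exosomes, miR-15b-5p in replicate 4 (29 December) stood at 5578 CPM above the other 3 libraries, with a gap of 0.856 of the group's whole range, beyond the 95% critical value of Dixon's test for 4 samples. This was 1 of 16 group values examined, and chance flags about 1 in 20.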

How the results depend on the processing

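No member was called for IL4, or for the interaction, under any alternative. Between compartments, miR-15b-5p and miR-322-5p were each called in 13 of 14 alternatives with IL4 and in 13 of 14 in controls, and miR-16-5p in 12 and 8 of 14. The exception for miR-15b-5p and miR-322-5p was library totals as the scale. That scale left 0 members called with IL4 and 1 in controls, miR-195a-5p, which passed the filter through exosome libraries alone. Leaving out 1 library gave 2 to 3 called members with IL4 and 2 to 4 in controls, and 127 to 169 and 142 to 172 called lines. Over all lines, IL4 calls in exosomes were 0 with library totals, 12 with no filter, 6 in DESeq2 and 0 to 2 with 1 library left out. In lysates they were 14 with library totals, 4 in 1 fit over all 14 libraries and 2 to 34 with 1 library left out (2 without control replicate 2, 7 without IL4 replicate 2, 10 without IL4 replicate 3, 13 without control replicate 3). The interaction gave 3 calls with no filter. With 1 library left out, the log2 arm ratio difference of miR-15b ran from -1.29 to -0.70 between compartments with IL4, from -1.31 to -0.75 in controls, from -0.12 to 0.56 for IL4 in exosomes and from 0.01 to 0.32 in lysates. The cause of these shifts was not tested. With the date as a replicate block, IL4 calls were 1 in exosomes and 50 in lysates, and the arm ratio gave exact p = 0.375 in exosomes and exact p = 0.25 in lysates, where all 3 pairs went one way and 0.25 is the smallest p that 3 pairs allow; no other call changed. Across compartments no block was possible because no date is shared. Leaving out the exosome libraries of 25 January or the miR-203 lines was chosen after seeing the data. Depth limits the exosome values: 1 read is worth up to 35.2 CPM there.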
